A study of Arabidopsis thaliana with 12 samples.

Results

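Of 23784 genes measured in aerial tissues of *Arabidopsis* seedlings, 26 had about the same raised mean level in mutants of the CBP60b clade whether or not canonical effector-triggered immunity (ETI) was also blocked. They were chosen from mean FPKM (fragments counted, scaled for gene length and library size) of 3 libraries per genotype, with 0.1 added to each mean. The rule asked for an *octuple* mean of at least 1, an *octuple* mean at least 4 times that of WT and of *epn*, a *quintuple* mean at least 4 times that of WT, and a *quintuple*/*octuple* ratio between 0.67 and 1.5. The differences of *octuple* and *quintuple* from the other genotypes, and from each other, are therefore what chose the genes. They are given as descriptions, and no test is read from them.

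RNA-seq covered 4 genotypes with 3 replicates each, and every replicate was a pool of 20 to 30 seedlings, 2 weeks old and grown under long days. *octuple* carries mutations in *CBP60b*, *CBP60c*, *CBP60d*, *CBP60e*, *CBP60f*, *EDS1*, *PAD4* and *NDR1*. *quintuple* carries the *CBP60b* to *CBP60f* mutations alone, *epn* carries the *eds1*, *pad4* and *ndr1* mutations alone and is called triple in the sample titles, and WT is Columbia-0. The labels name each mutant genotype without its alleles, and the study, which used lines *quintuple-1* and *quintuple-2*, does not say which was sequenced. *quintuple* seedlings are described by the study as dying at about the age sampled, so that these libraries may hold dying tissue. In a pooled seedling, a change in the number of cells of a type and a change in RNA per cell cannot be told apart.

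ETI is the response that follows recognition of pathogen effectors by intracellular NLR receptors. EDS1 and PAD4 act together downstream of TNL receptors, and NDR1 acts downstream of many CNL receptors, so the *epn* mutations remove the main signalling routes of both classes. CBP60 proteins are calmodulin-binding transcription factors, of which CBP60g and the related SARD1 activate salicylic acid (SA) synthesis, and loss of the CBP60b clade causes autoimmunity. Some of the 26 genes belong to families that act in the cell wall and the apoplast, where pectin-degrading enzymes, their inhibitors, class III peroxidases and lipid-transfer proteins remodel or protect the wall.

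Promoters are shown first for genes whose upstream sequence bears on the description that follows. They were read from the RefSeq sequence of build TAIR10.1, and each is the stretch of 250 bases before the annotated gene start, written 5′ to 3′ on the strand of the gene. In *AT1G36060*, a gene of the AP2/ERF transcription factor family at chr1:13454496-13456336 on the minus strand, and in *SLAH2*, a nitrate-permeable anion channel gene at chr4:13918165-13920378 on the minus strand, the capitals mark W-boxes (TTGACC or TTGACT on either strand), the elements bound by WRKY factors. In *AT2G41810* and *AT2G41800*, neighbouring genes of the DUF642 family of cell wall proteins at chr2:17439263-17441416 and chr2:17436443-17438168 on the minus strand, the capitals mark the longest run of bases that their promoters share. The first of these is among the 26 genes and the second is not.
AT1G36060, chr1:13456337-13456586: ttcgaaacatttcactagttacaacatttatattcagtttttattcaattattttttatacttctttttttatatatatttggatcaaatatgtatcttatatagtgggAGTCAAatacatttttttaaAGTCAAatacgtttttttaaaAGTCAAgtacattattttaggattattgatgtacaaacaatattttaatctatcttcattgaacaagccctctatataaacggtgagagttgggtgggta
SLAH2, chr4:13920379-13920628: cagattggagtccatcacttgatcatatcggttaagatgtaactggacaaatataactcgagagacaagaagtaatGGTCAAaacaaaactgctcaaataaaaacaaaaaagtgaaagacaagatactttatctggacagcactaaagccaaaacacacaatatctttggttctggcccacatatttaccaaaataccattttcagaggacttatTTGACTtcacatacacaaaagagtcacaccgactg
AT2G41810, chr2:17441417-17441666: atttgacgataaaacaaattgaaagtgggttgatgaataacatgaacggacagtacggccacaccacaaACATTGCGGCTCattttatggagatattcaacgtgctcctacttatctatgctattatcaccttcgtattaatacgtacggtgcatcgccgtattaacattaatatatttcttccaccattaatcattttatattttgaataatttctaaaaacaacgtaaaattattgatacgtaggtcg
AT2G41800, chr2:17438169-17438418: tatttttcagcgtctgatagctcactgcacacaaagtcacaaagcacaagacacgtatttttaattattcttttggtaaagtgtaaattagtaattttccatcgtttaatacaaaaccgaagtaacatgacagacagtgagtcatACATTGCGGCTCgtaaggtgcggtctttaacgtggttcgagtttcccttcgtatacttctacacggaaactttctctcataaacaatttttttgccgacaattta

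The 3 W-boxes of *AT1G36060* began 141, 121 and 100 bases before the gene start and were all of the TTGACT form, and those of *SLAH2* began 174 and 35 bases before it. These were the only members with more than 1 W-box. Over the 26 genes, 6 promoters (23.1%) held a W-box, against 161 of 328 (49.1%) among the genes that were higher in *quintuple* than in *octuple* by the same rule, and 6773 of all 23780 promoters (28.5%). The TTGACT form was found in 3 of 26 promoters (11.5%), in 126 of the 328 (38.4%) and in 19.0% of all promoters. The TTGACC form was in 15.4% of the 26, 17.4% of the 328 and 12.2% of all promoters. GAAATTT, the core of the element bound by CBP60g and SARD1, was in 1 of the 26 promoters, that of *PGIP2* (3.85%), against 13.4% of the 328 and 12.6% of all promoters.

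Other elements, each searched on both strands, were as follows. The core of the mitochondrial dysfunction motif, CTTG and CA with 5 bases between them, was in 5 of 26 promoters (19.2%), 7.62% of the 328 and 7.74% of all promoters, and the 5 genes were *AT1G76640*, *AT2G18193*, *AT3G15720*, *SLAH2* and *AT5G51920*. TGACG, bound by TGA factors and sharing TGAC with the W-box, was in 23.1%, 27.1% and 19.0%, and the G-box CACGTG was in 11.5%, 7.93% and 7.1% of the same sets. The GCC-box GCCGCC was in 0 of the 26, 2.13% of the 328 and 1.92% of all promoters. The heat shock element GAANNTTC was in 7.69%, 14.3% and 9.43% of the same sets. TATAAA was in 16 of 26 promoters (61.5%), 53.7% of the 328 and 46.6% of all promoters. With 26 promoters each gene is 3.85 percentage points, so these shares are a description of the letters in these windows only.

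The set is small among the genes that the CBP60 mutations raised in both backgrounds. With the minimum *octuple* mean of 1 applied, 396 genes had an *octuple* mean at least 4 times that of WT and of *epn*, and 365 of them also had a *quintuple* mean at least 4 times that of WT. The *quintuple*/*octuple* ratio of these 365 genes had a median of 5.47, with quartiles of 2.81 and 9.96. It was over 1.5 in 328 genes and under 0.67 in 11, which leaves the 26 genes (7.12%). The 26 genes lay in the lower tail of a broad distribution and formed no peak of their own, as the plot of ratios shows. Between 1.5 and 3 there were 60 genes, between 3 and 6 there were 99, between 6 and 12 there were 97, and 72 lay above 12.

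**Figure D1:**
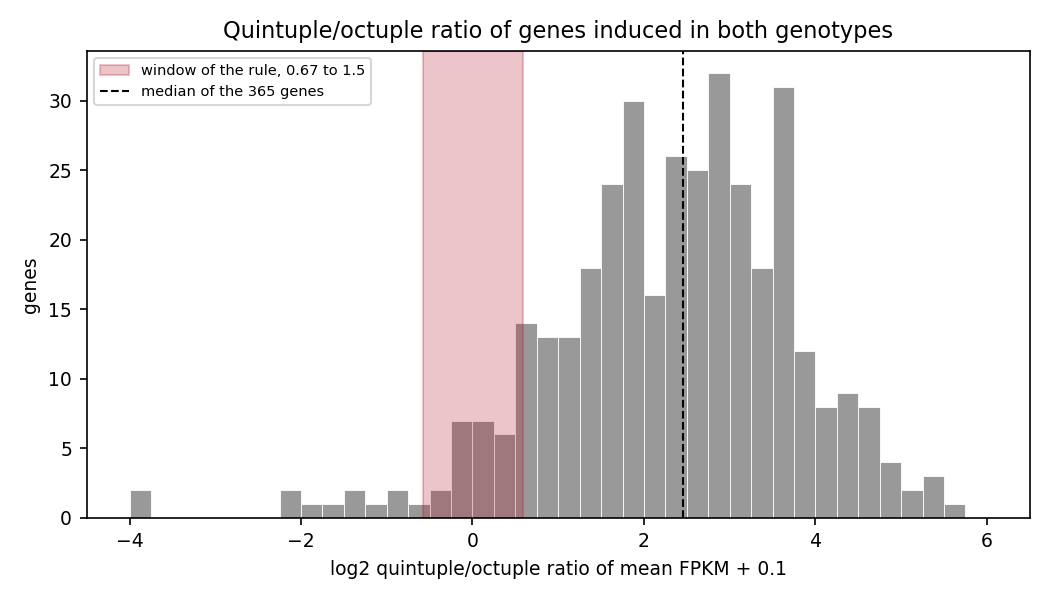
Number of genes (y axis) by log2 ratio of mean FPKM + 0.1 in *quintuple* over *octuple* (x axis), for the 365 genes with an *octuple* mean of at least 1 that were at least 4 times WT in both genotypes and at least 4 times *epn* in *octuple*. The shaded window from 0.67 to 1.5 holds 26 genes, and the dashed line marks the median ratio of 5.47.

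The limits of the rule cut through similar genes. Just inside the upper ratio limit were *AT5G51920* at 1.45 and *AT1G53880* at 1.45, and just outside were *AT2G41480* at 1.52 and *AT2G38390* at 1.53, both peroxidase genes. Just inside the lower limit were *FLR1* at 0.674 and *DIN11* at 0.720, and just outside were *AT4G39320* at 0.522 and *LTP2* at 0.503. For *octuple* over *epn*, *RNS1* at 4.62 and *AT1G53880* at 4.73 were inside, and *AT1G52100* at 3.81 and *AT4G39720* at 3.39 were outside. For *quintuple* over WT, *AT2G18370* at 4.47 and *FLR1* at 5.10 were inside, and *AT3G58550* at 3.95 and *AT4G30460* at 3.61 were outside. For *octuple* over WT the nearest inside were *AT2G18370* at 4.24 and *AT1G53880* at 4.91, and no gene that met the other limits lay outside.

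Grouped by hand from their annotated products, 11 of the 26 genes were placed in cell wall and secreted families, 3 are transporters or channels, 4 are regulators or calcium-binding proteins, 5 are other enzymes and 3 are otherwise annotated. The products of those 11 genes (42.3%) were carried by 19 of the 328 genes higher in *quintuple* (5.79%) and by 300 of all 23784 genes (1.26%). They were picked because members carry them, so these shares do not show that such genes are over-represented. *RNS1*, which is also secreted, was placed with the other enzymes. Peroxidase superfamily was the most frequent product, with 3 of the 26 genes, 8 of the 328 genes higher in *quintuple* and 53 of all 23784. *octuple* means ranged from 1.01 to 298 FPKM with a median of 5.02, and *quintuple* means from 0.795 to 298 with a median of 4.91. Medians were 0.345 in *epn* and 0.347 in WT. Levels in FPKM are per length of gene and can be compared between genes.

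**Figure D2:**
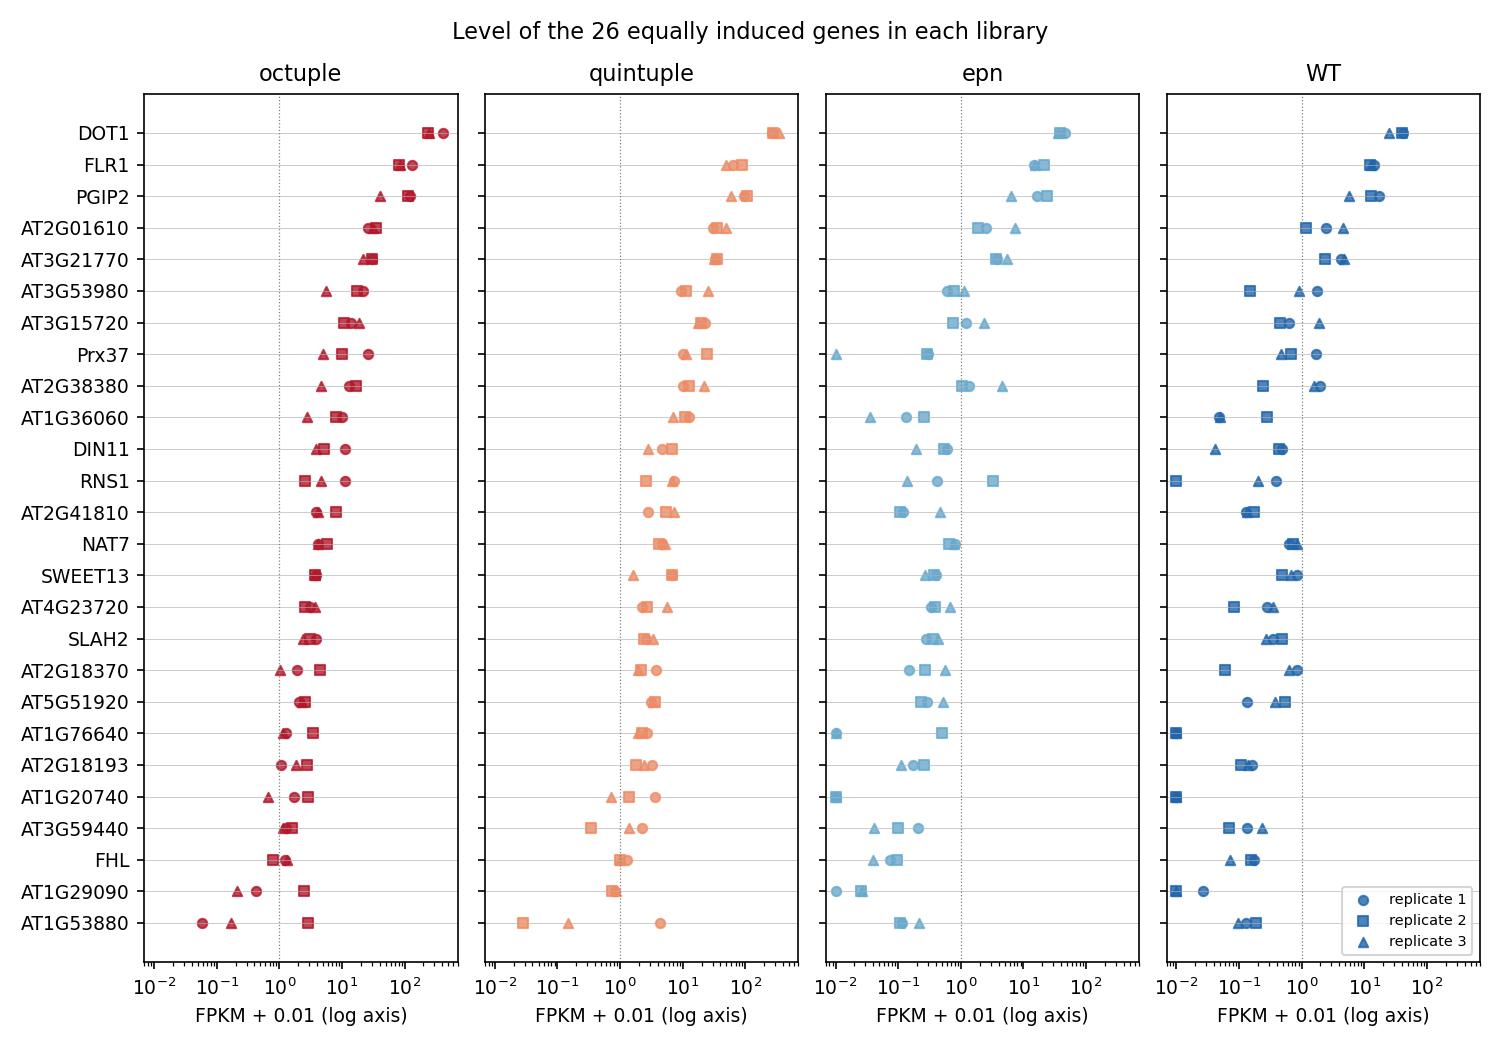
FPKM + 0.01 of the 26 genes on a log x axis, in 1 panel per genotype, with genes ordered by their *octuple* mean and 1 point per library (circle, square and triangle for replicates 1, 2 and 3). The points of *octuple* and *quintuple* lie to the right of those of *epn* and WT in 23 of 26 genes, and the dotted line marks 1 FPKM.

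*DOT1* (AT2G36120, chr2:15165213-15166536), a glycine-rich protein named for a vein pattern defect, was the most abundant of the set. It was at 408, 237 and 248 FPKM in *octuple* replicates 1 to 3 and at 268, 278 and 347 in *quintuple*, against 45.5, 37.8 and 36.0 in *epn* and 42.0, 40.2 and 25 in WT. The means were 298 ± 95.8 in *octuple* and 298 ± 43.1 in *quintuple* (SD, n = 3), a ratio of 1.00, and 8.31 times the WT mean in each.

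Both genes of the polygalacturonase-inhibitor type of leucine-rich repeat protein followed. *PGIP2* (AT5G06870, chr5:2133918-2135168), an inhibitor of fungal polygalacturonases, was at 120, 113 and 40.6 FPKM in *octuple* and 96.5, 107 and 59.8 in *quintuple*, against 16.7, 23.6 and 6.43 in *epn* and 17.2, 12.9 and 5.69 in WT. Replicate 3 was the lowest library of every genotype for this gene, and the *octuple* and *quintuple* ranges overlapped. *FLR1* (AT3G12145, chr3:3874487-3876302), a leucine-rich repeat protein also known as FLOR1, was at 131, 81.4 and 85.7 FPKM in *octuple* and 63.9, 88.5 and 48.6 in *quintuple*, against 14.6, 21.3 and 15.2 in *epn* and 14.1, 12.4 and 12.7 in WT. It was closest to the lower ratio limit, and its *octuple* range reached above its *quintuple* range while overlapping it. The mean of *PGIP2* was 7.57 times that of WT in *octuple* and 7.29 times in *quintuple*, and that of *FLR1* was 7.56 and 5.10 times in the same genotypes.

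Pectin-related genes were *AT2G01610*, of the invertase and pectin methylesterase inhibitor family, and *AT3G15720*, of the pectin lyase-like family. *AT2G01610* was at 26.4, 35.3 and 31.4 FPKM in *octuple* and 31.0, 35.3 and 49.6 in *quintuple*, against 2.49, 1.87 and 7.27 in *epn* and 2.47, 1.19 and 4.51 in WT. *AT3G15720* was at 14, 10.9 and 18.5 FPKM in *octuple* and 22.4, 19.7 and 17.2 in *quintuple*, against 1.2, 0.738 and 2.37 in *epn* and 0.613, 0.435 and 1.86 in WT. In both genes the lowest *octuple* and *quintuple* library was above the highest library of *epn* and WT. *AT2G01610* was 11.0 times WT in *octuple* and 13.7 times in *quintuple*, and *AT3G15720* was 13.6 and 18.6 times.

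The peroxidases, which act on phenolics and on hydrogen peroxide in the wall, differed in how far their replicates spread. *AT3G21770* was at 30.3, 30.3 and 21.4 FPKM in *octuple* and 32.4, 34.8 and 31.6 in *quintuple*, against 3.71, 3.63 and 5.46 in *epn* and 4.29, 2.40 and 4.71 in WT. Its *quintuple* libraries all lay above its *octuple* libraries, by little. *Prx37* (AT4G08770) was at 25.9, 10.1 and 4.91 FPKM in *octuple* and 10.2, 24.6 and 11.4 in *quintuple*, against 0.287, 0.277 and 0 in *epn* and 1.68, 0.664 and 0.469 in WT. *AT2G38380* was at 12.8, 16.8 and 4.57 FPKM in *octuple* and 10.1, 12.8 and 21.8 in *quintuple*, against 1.32, 1.05 and 4.58 in *epn* and 1.96, 0.231 and 1.55 in WT. In *AT2G38380* the lowest *octuple* library and the highest *epn* library, both replicate 3, were at the same level, and in *Prx37* the lowest library of *octuple* was also replicate 3.

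The lipid-transfer protein genes were *AT3G53980* and *AT2G18370*. *AT3G53980* was at 22.1, 17.4 and 5.54 FPKM in *octuple* and 9.56, 11.4 and 25.1 in *quintuple*, against 0.593, 0.767 and 1.10 in *epn* and 1.78, 0.141 and 0.907 in WT. Its means were almost equal, with a ratio of 1.02, while replicate 3 was the lowest library in *octuple* and the highest in *quintuple*. *AT2G18370* was at 1.90, 4.50 and 1.00 FPKM in *octuple* and 3.77, 2.15 and 1.92 in *quintuple*, against 0.139, 0.254 and 0.557 in *epn* and 0.847, 0.0504 and 0.621 in WT. *AT2G41810* of the DUF642 family was at 3.81, 8.11 and 4.19 FPKM in *octuple* and 2.80, 5.45 and 7.14 in *quintuple*, against at most 0.448 in *epn* and 0.164 in WT.

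Of the transport genes, *NAT7* (AT1G60030), a member of the nucleobase-ascorbate transporter family, had similar levels in all libraries of a genotype. It was at 4.12, 5.76 and 4.13 FPKM in *octuple* and 4.62, 4.24 and 5.12 in *quintuple*, against 0.803, 0.642 and 0.764 in *epn* and 0.628, 0.726 and 0.852 in WT. Its ratio was 0.998 and its fold over WT was 5.71 in *octuple* and 5.70 in *quintuple*. *SLAH2* was at 3.78, 3.10 and 2.35 FPKM in *octuple* and 2.54, 2.36 and 3.39 in *quintuple*, against at most 0.426 in *epn* and 0.469 in WT. *SWEET13* (AT5G50800), a sucrose transporter, was at 3.79, 3.75 and 3.72 FPKM in *octuple* and 6.74, 6.84 and 1.59 in *quintuple*, against 0.395, 0.359 and 0.263 in *epn* and 0.843, 0.482 and 0.669 in WT. No *quintuple* library of *SWEET13* was near its *octuple* level, so that the ratio of 1.34 averages libraries on both sides.

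Among regulators, *AT1G36060* had the largest fold over WT of the 26 genes on the scale of mean FPKM + 0.1, in *octuple* and in *quintuple*. It was at 10.0, 8.17 and 2.79 FPKM in *octuple* and 12.4, 10.8 and 6.91 in *quintuple*, against at most 0.248 in *epn* and 0.271 in WT, which gave 32.8 times WT in *octuple* and 46.8 times WT in *quintuple*. *FHL* (AT5G02200), which with FHY1 carries phytochrome A into the nucleus, was at 1.24, 0.791 and 1.3 FPKM in *octuple* and 1.27, 0.971 and 1.01 in *quintuple*, against at most 0.0872 in *epn* and 0.167 in WT. The EF-hand calcium-binding genes were low. *AT1G76640*, listed also as CALMODULIN LIKE 39, was at 1.28, 3.39 and 1.14 FPKM in *octuple* and 2.66, 2.24 and 1.94 in *quintuple*, against 0, 0.484 and 0 in *epn* and 0 in every WT library. *AT3G59440* was at 1.14 to 1.58 FPKM in *octuple* and 0.329 to 2.21 in *quintuple*, against at most 0.195 in *epn* and 0.220 in WT.

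Of the other enzymes, *DIN11* (AT3G49620), a dark-inducible 2-oxoglutarate-dependent oxygenase, was at 11.0, 5.12 and 3.79 FPKM in *octuple* and 4.72, 6.73 and 2.83 in *quintuple*, against at most 0.587 in *epn* and 0.479 in WT. *RNS1* (AT2G02990), a secreted ribonuclease known to respond to phosphate starvation and wounding, was at 11.2, 2.56 and 4.58 FPKM in *octuple* and 7.22, 2.56 and 6.67 in *quintuple*, against 0.403, 3.2 and 0.128 in *epn* and 0.382, 0 and 0.195 in WT. Replicate 2 of *epn* was above replicate 2 of both CBP60 mutants for *RNS1*, and without that library *RNS1* was still a member. *AT5G51920*, of the pyridoxal phosphate-dependent transferases, was at 2.08 to 2.55 FPKM in *octuple* and 3.15 to 3.62 in *quintuple*, ranges that did not overlap, against at most 0.506 in *epn* and 0.529 in WT. *AT2G18193*, an AAA-type ATPase by its superfamily, was at 1.06 to 2.77 in *octuple* and 1.79 to 3.19 in *quintuple*, and *AT1G29090*, of the cysteine proteinases, was at 0.203 to 2.49 and 0.721 to 0.858 FPKM in the same genotypes.

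The remaining genes include the lowest signals. *AT4G23720*, with a DUF1191 domain, was at 2.55 to 3.64 FPKM in *octuple* and 2.25 to 5.64 in *quintuple*. *AT1G20740*, with a DUF833 domain, was counted 245 times over the *octuple* libraries and 235 times over the *quintuple* libraries, and 0 times in all *epn* and WT libraries. Taking 3 counts over the group as the most that 0 counts can hide, it was at least 78.9-fold higher in *octuple* than in WT, at least 77.8-fold higher in *octuple* than in *epn* and in *quintuple*, compared with WT, at least 83.6-fold higher. On the same basis *AT1G76640*, with 0 counts in WT, was at least 50.6-fold higher in *octuple* and at least 59.1-fold higher in *quintuple*, each relative to WT. *AT1G29090* had 198 counts in *octuple* and 2 in *epn*, a ratio of 94.4 with a 95% exact counting interval of 25.8 to 785. Of the 198 counts, 159 came from *octuple* replicate 2, and without it the fitted log2 fold change of *AT1G29090* in *octuple* over *epn* was 4.54, against 6.36 with it. These limits and the interval cover counting error only.

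*AT1G53880*, a subunit of translation initiation factor eIF-2B, is uncertain as a member. It was at 0.0491, 2.83 and 0.160 FPKM in *octuple* and 4.38, 0.0180 and 0.138 in *quintuple*, against 0.0971 to 0.203 in *epn* and 0.0861 to 0.177 in WT. Only *octuple* replicate 2 and *quintuple* replicate 1 stood above the range of *epn* and WT. Every exonic 50-base sequence of the gene occurs elsewhere in the genome, and 95.4% occur in *AT1G53900*, so that reads of the copies could not be told apart. In the other 25 genes at most 6.07% of such sequences, in *Prx37*, were shared.

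In 23 of the 26 genes all 6 libraries of *octuple* and *quintuple* lay above all 6 libraries of *epn* and WT, which was so for 6.68% of all genes. The exceptions were *AT2G38380*, *RNS1* and *AT1G53880*. The *octuple* and *quintuple* ranges overlapped in 24 genes, and in *AT3G21770* and *AT5G51920* *quintuple* lay above *octuple*. Since the rule used these means, nothing is read from these counts.

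In edgeR's quasi-likelihood test on counts, p-values were adjusted by Benjamini-Hochberg over all genes. A gene was called where the adjusted p was under 0.05 and the change was 2-fold or more. The filter on low counts was passed by 25 of the 26 genes. In *octuple* against WT, 14 of 25 were called higher, beside 1.78% of all genes tested, and 0 lower, beside 0.151%. With the replicate number as a block, 24 were called, beside 5.18% of all genes, and DESeq2 called 24, beside 4.28%. Leaving out 1 library gave 2 to 10 calls, with 2 and 3 without *octuple* replicates 1 and 2 and 5 and 3 without WT replicates 1 and 2. In *octuple* against *epn*, 19 were called higher, beside 2.29%, and 0 lower, beside 0.125%. The block gave 23, beside 5.63%, and leaving out 1 library gave 3 to 17, with 6 and 10 without *octuple* replicates 1 and 2 and 5 and 3 without *epn* replicates 1 and 2. In *quintuple* against WT, 24 were called higher, beside 19.5%, the exception being *AT2G18370*, and the block gave 25, beside 20.0%. These contrasts chose the genes and the filter passed them on the same libraries, so the counts are given as a description.

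The intervals between *octuple* and *quintuple* come from the fit without the replicate block, so their widths include differences between replicate numbers. Intervals with the block are not given. The widths describe the precision of that unpaired fit, and not how close these genotypes were. The rule chose the genes on this ratio in the same libraries, which holds the centre of each interval near 1. None of the 25 genes was called between *octuple* and *quintuple* by edgeR or by DESeq2, beside 16.7% of all genes called higher and 14.9% called lower in *octuple*, and the window on the ratio fixes most of this. At an unadjusted p below 0.05 there was 1 gene, *FLR1*, with a log2 fold change of 0.82 (SE 0.32, *octuple* over *quintuple*) and an adjusted p of 0.0740 in edgeR. Without *quintuple* replicate 2 it was the 1 gene called, with a log2 fold change of 1.08. The standard error of the log2 fold change was 0.19 to 0.91, with a median of 0.49. The 95% interval lay within 1.5-fold either way in 2 genes only, *AT2G01610* (0.716 to 1.34 times) and *AT3G21770* (0.701 to 1.43 times). In 18 of the 25 genes it reached 2-fold in at least 1 direction, and in *AT1G29090* it ran from 0.360 to 7.47 times. A missed call is therefore no sign that the levels were equal.

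**Figure D3:**
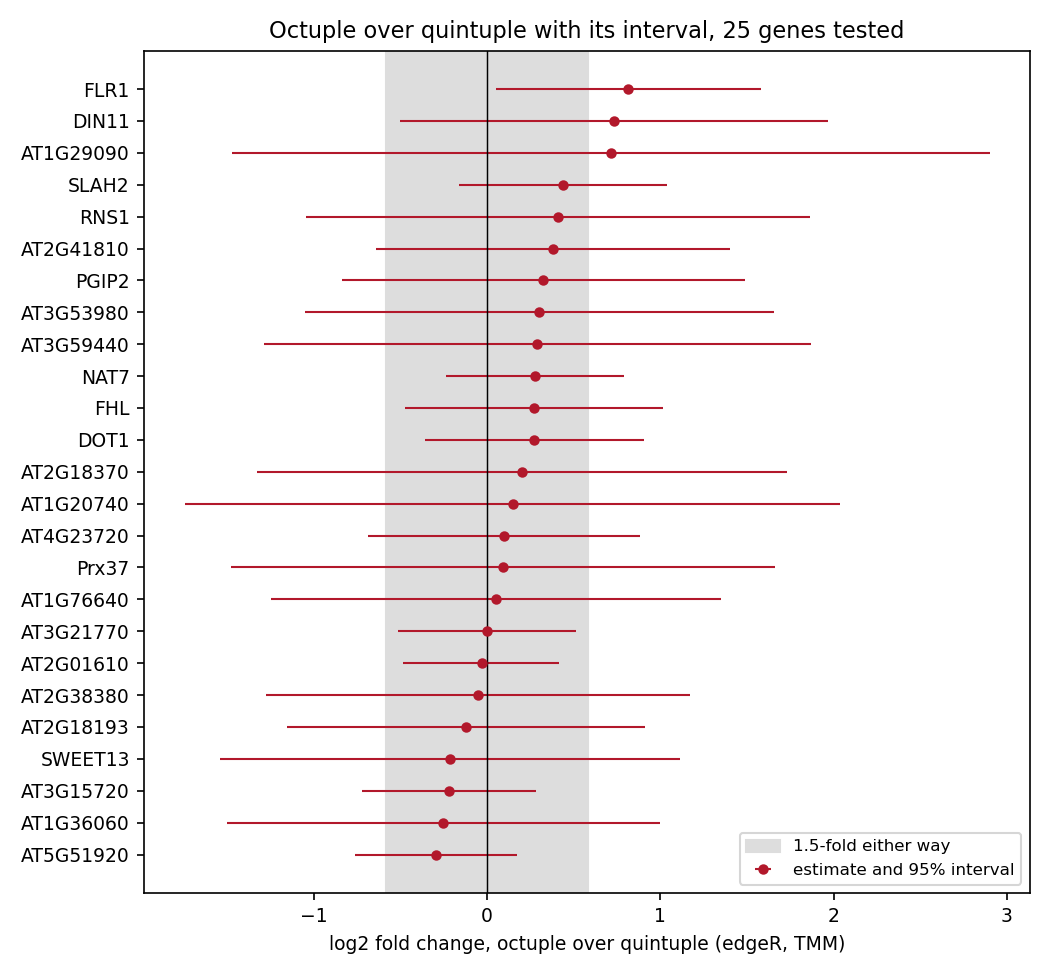
Log2 fold change of *octuple* over *quintuple* (x axis) from edgeR without the replicate block for the 25 genes tested (y axis, ordered by value), with bars for the 95% interval and a grey band for 1.5-fold either way. The intervals of *AT2G01610* and *AT3G21770* are the only ones inside the band, and the estimates run from -0.29 in *AT5G51920* to 0.82 in *FLR1*.

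The scale of the libraries enters this comparison. The median log2 fold change of *octuple* over *quintuple* over all genes was 0.015 with TMM scaling and -0.24 with library size alone, and over the 25 tested members it was 0.20 and -0.08, so its sign depends on the scaling. Without *octuple* replicate 2 it was also below 0, at -0.08. With mean values scaled by TMM factors in place of FPKM, the median *quintuple*/*octuple* ratio of the 26 genes was 0.914, against 1.06 in FPKM, and 22 of them met the rule, among 35 genes that did. The genes lost were *AT1G29090*, *AT2G18370*, *FLR1* and *DIN11*. The median thus lay on the *quintuple* side in FPKM and on the *octuple* side with TMM.

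Replicate by replicate, the ratio moved further than the means show. The *quintuple*/*octuple* ratio of libraries with the same replicate number was inside the window in all 3 numbers for 6 genes, in 2 for 8, in 1 for 6 and in none for 6. The 6 genes inside it in all 3 were *PGIP2*, *AT3G21770*, *NAT7*, *SLAH2*, *AT5G51920* and *FHL*. The 6 genes outside it in all 3 were *AT3G53980*, *Prx37*, *SWEET13*, *AT2G18370*, *AT1G76640* and *AT1G29090*, whose means came close through libraries on both sides. The median log2 ratio of *octuple* over *quintuple* was -0.13 in replicate 1, 0.04 in replicate 2 and -0.54 in replicate 3, and 11, 14 and 6 of 26 genes were higher in *octuple* in those replicates.

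The same measure was then read in libraries that the choice had not used. The rule was applied to 2 replicate numbers at a time and the *quintuple*/*octuple* ratio was read in the one left out. Of 91 gene readings chosen in this way, 38 (41.8%) fell inside the window in the left-out libraries, as 10 of 24 in replicate 1, 14 of 30 in replicate 2 and 14 of 37 in replicate 3. The left-out median ratios were 1.34, 1.16 and 1.58, above 1 each time. All 3 folds of at least 4 were met in the left-out libraries by 66 readings (72.5%). Genes chosen in the same way for a *quintuple*/*octuple* ratio over 1.5 fell inside the window in 31 of 955 readings (3.25%). That set was chosen outside the window, with left-out median ratios of 4.78, 8.39 and 6.68 in replicates 1 to 3, so its share is no baseline for the 41.8%. A gene is counted once for each choice that held it, so the readings are not independent. With TMM scaling, 52 of 110 readings (47.3%) were inside. More of the 91 readings thus met the folds than the ratio. No share over all genes stands beside either count, so both only describe these readings.

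**Figure D4:**
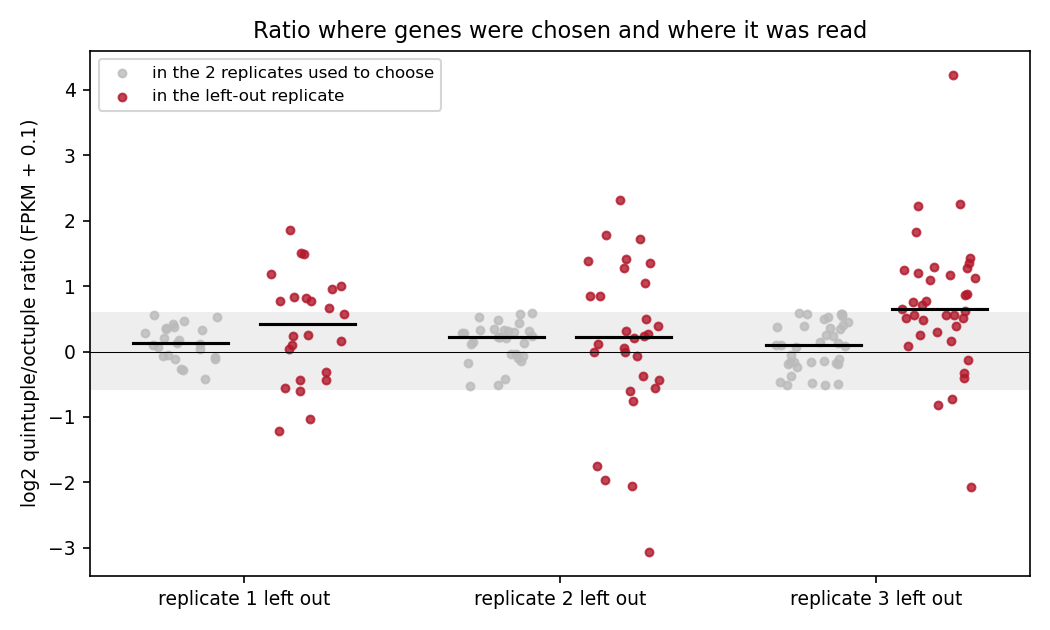
Log2 *quintuple*/*octuple* ratio of FPKM + 0.1 (y axis) of genes chosen in 2 replicate numbers, where they were chosen (grey) and in the left-out number (red), for each number left out (x axis). Each point is a gene, black lines are medians and the band is the window of 0.67 to 1.5, which holds 38 of the 91 left-out readings.

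Members differed in how far they depended on single libraries. In 12 sets that each left out 1 library, 10 genes met the rule every time, and in 3 sets that each left out 1 replicate number, 10 genes did. The 9 genes common to both were *DOT1*, *PGIP2*, *AT2G01610*, *AT3G21770*, *AT2G41810*, *NAT7*, *AT4G23720*, *SLAH2* and *FHL*. Of these, 5 belong to the cell wall and secreted families. The number of genes that met the rule ranged from 21 to 37 over these sets.

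*epn* against WT is a contrast whose ratio the rule did not use, although it capped both levels. It compares these genes with and without *EDS1*, *PAD4* and *NDR1* function where the CBP60 genes were intact. Of 18 genes that passed the filter on low counts, 0 were called by edgeR, beside 0.0% of all genes, of which 419 had an unadjusted p below 0.05, and DESeq2 also called 0 of them. The fit with the replicate block called 0 of them as well, beside 0.0568% of all genes higher and 0.548% lower. The main edgeR fit also missed *PAD4*, itself mutated in *epn*, at 0.455 to 0.645 FPKM in *epn* and 1.93 to 4.06 in WT. Since that fit called no gene at all, 0 of 18 does not show that these genes were unchanged. At an unadjusted p below 0.05 there was 1 gene, *SWEET13*, with a log2 fold change of -0.97 (SE 0.40), an adjusted p of 1.0 in edgeR and all 3 *epn* libraries below all 3 WT libraries. *Prx37* had a log2 fold change of -2.31 (SE 1.08) and *RNS1* of 2.74 (SE 1.47), with adjusted p of 1.0 in edgeR for each. The median log2 fold change over the 18 genes was 0.27, beside 0.005 over all genes.

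Differences between replicate numbers within genotypes were also not used by the rule. In an F-test on replicate number with genotype in the fit, over all 12 libraries, 3 of 26 genes (11.5%) were called at an adjusted p below 0.05 in edgeR, beside 16.0% of all genes. They were *PGIP2*, *DIN11* and *AT1G36060*, with log2 differences of replicate 3 from replicate 1 of -1.45, -1.65 and -1.41 and edgeR adjusted p-values of 0.000851, 0.0230 and 0.0392. All 3 were lower in replicate 3. Without the *quintuple* libraries 7 genes were called, and without the libraries of any 1 other genotype 1 was. The share of all genes called in these reduced fits is not given here, so nothing is read from the change. What distinguishes replicate 3 was not tested.

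Several of the genes lie next to a related gene that did not keep to the same pattern. For 9 members, the adjacent measured gene had the same annotated product or was of the same named family, and 7 of these neighbours were tested between *octuple* and *quintuple*. Of the 7, 4 were called, 3 of them lower in *octuple*, beside 14.9% of all genes called lower and 16.7% called higher. *PGIP1* and *CML38* were added by family name, and both were among the 3 called lower. By annotated product alone, the calls were *AT2G41800*, lower, and *SWEET10*, higher. The members were chosen for a ratio that few induced genes had, so a neighbour without it is not read as a result. *AT2G41800*, the DUF642 gene beside *AT2G41810*, was at 13.8, 11.7 and 11.4 FPKM in *octuple* and 44.7, 61.6 and 72.5 in *quintuple*, against at most 0.0317 in *epn* and 0.0807 in WT. It was lower in *octuple* than in *quintuple* by a log2 fold change of -2.0 (SE 0.18, adjusted p = 0.00104, edgeR), while *AT2G41810* had 0.38 (SE 0.43). Both genes were thus near 0 in *epn* and WT and raised in both CBP60 mutants. The difference between the 2 genes was not tested.

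*PGIP1*, the polygalacturonase inhibitor gene beside *PGIP2*, was at 10.3, 7.44 and 5.20 FPKM in *octuple* and 31.7, 32.9 and 25.8 in *quintuple*, against 3.77, 3.55 and 1.18 in *epn* and 3.44, 3.41 and 1.43 in WT. It was lower in *octuple*, with a log2 fold change of -1.71 (SE 0.31, adjusted p = 0.00558, edgeR). *CML38*, beside *AT1G76640*, was at 0.675, 0.682 and 0.705 FPKM in *octuple* and 13.1, 8.67 and 2.44 in *quintuple*, against 0.216 to 1.24 in *epn* and 0.0733 to 2.97 in WT. Its log2 fold change was -3.34 (SE 0.66, adjusted p = 0.00747, edgeR). *SWEET10*, beside *SWEET13*, was called higher in *octuple* with a log2 fold change of 4.33 (SE 0.80, adjusted p = 0.00591, edgeR), at 0.224 to 0.440 FPKM in *octuple* and at most 0.0370 in *quintuple*, against 0.574 to 1.11 in *epn* and 0.278 to 0.634 in WT.

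*AT3G59450*, the EF-hand gene beside *AT3G59440*, was not called, with a log2 fold change of -1.40 (SE 0.51, adjusted p = 0.0584, edgeR). The peroxidase neighbours were not called either. *AT2G38390*, beside *AT2G38380*, was at 14.2, 14.2 and 4.28 FPKM in *octuple* and 24.3, 15.9 and 9.75 in *quintuple*, and fell just outside the ratio limit. *AT4G08780*, beside *Prx37*, was at 2.65, 0.806 and 0.652 FPKM in *octuple* and 0.220, 0.582 and 0.784 in *quintuple*, with a log2 fold change of 1.67 (SE 0.70, adjusted p = 0.0908, edgeR). The promoters of the DUF642 genes printed above share a run of 12 bases, which begins 181 bases before *AT2G41810* and 105 bases before *AT2G41800*. It was found in these 2 of 23780 promoters, and it was picked because they share it. The longest run shared by the *PGIP2* and *PGIP1* promoters was 9 bases, and those of the peroxidase genes were 25 and 31 bases.

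**Figure D5:**
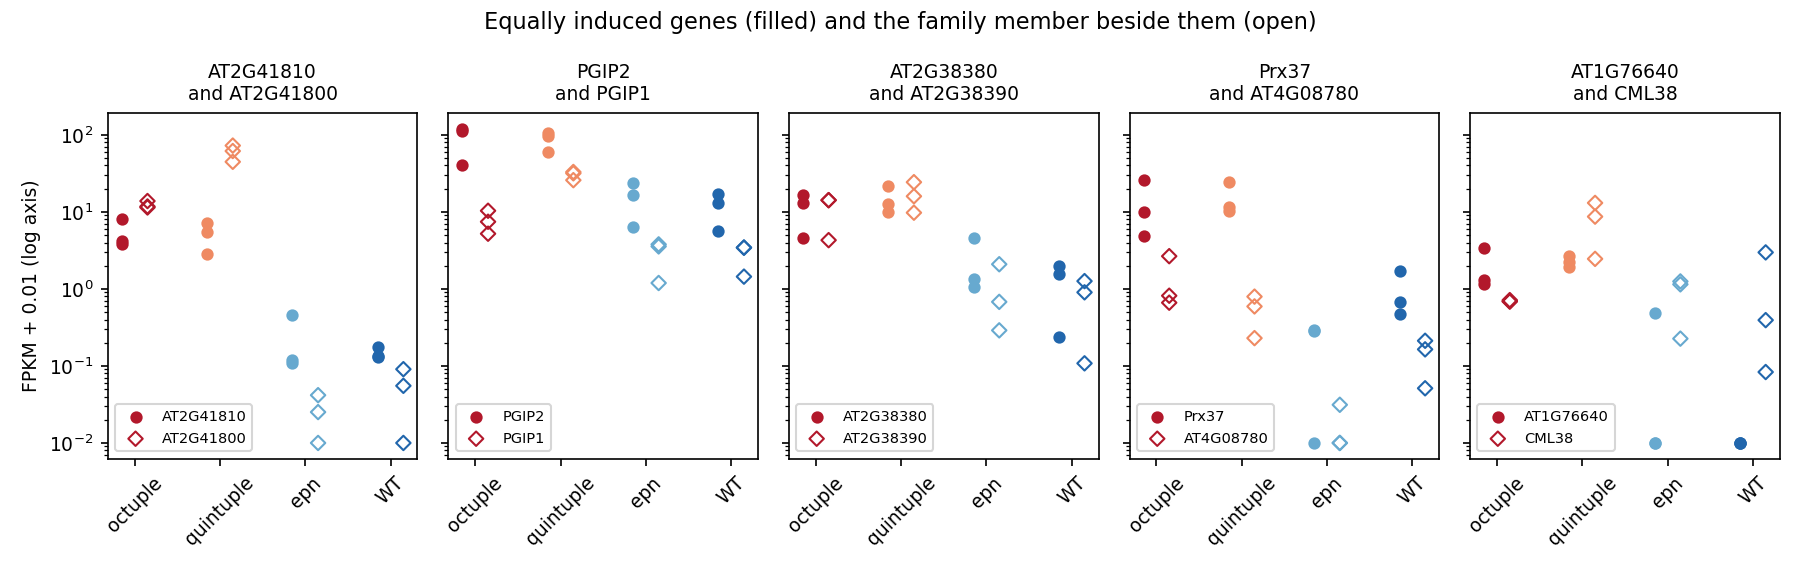
FPKM + 0.01 on a log y axis for 5 members (filled) and the related gene beside each (open), with 1 point per library and the genotypes *octuple*, *quintuple*, *epn* and WT along the x axis. *AT2G41800*, *PGIP1* and *CML38* are higher in *quintuple* than in *octuple*, and *AT2G41810*, *PGIP2* and *AT1G76640* overlap between these genotypes.

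None of the 92 measured genes of 8 lists (SA and systemic acquired resistance, PTI markers, jasmonate synthesis and response, camalexin, wounding, mitochondrial retrograde response and detoxification) was among the 26, which are 0.109% of all genes, so that 0 of 92 is near the share over all genes. The wound-related genes *ANAC071* and *ERF115* met every fold and the ratio, at 0.816 and 1.45, and missed only the minimum *octuple* mean, at 0.708 and 0.856 FPKM. In *octuple* against *quintuple*, where 14.9% of all genes were called lower and 16.7% higher, all 17 tested genes of SA and systemic acquired resistance were called lower in *octuple*, with a median log2 fold change of -3.37, beside 0.015 over all genes. Of the detoxification list 12 of 13 were called lower, of the jasmonate response list 10 of 18 lower and 3 higher, of the PTI list 4 of 10 lower and 1 higher, and of the wounding list 2 of 8 lower and 1 higher. The mitochondrial retrograde list had 4 of 7 lower and 1 higher, jasmonate synthesis 3 of 10 lower and camalexin 2 of 5 lower. The 25 tested members had a median of 0.20 in the same fit, which the rule fixes.

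Depth was 38698646 to 44294404 counted fragments per library. Of the mutated genes, *EDS1* was at 2.22 to 3.64 FPKM in *octuple*, 30.8 to 54.4 in *quintuple*, 1.56 to 2.46 in *epn* and 6.33 to 8.98 in WT. *PAD4* was below every WT library in every *octuple* and *epn* library, while *NDR1* overlapped WT in both. The CBP60 genes still gave reads, with *CBP60b* at 17.0 to 21.2 FPKM in *octuple*, 76.5 to 104 in *quintuple*, 13.4 to 16.3 in *epn* and 14.9 to 17.9 in WT. The counts therefore do not check those mutations. The summed FPKM of 5 aerial markers was 18940 to 37610 in *octuple*, 2999 to 13590 in *quintuple*, 22610 to 37810 in *epn* and 23010 to 38820 in WT. Replicate 3 was the low end of this sum in every genotype. Across the genotypes, *LHCB2.1* was at 13.2 to 37.8 FPKM in replicate 3 and at 1502 to 2822 in replicates 1 and 2. *CAB1*, *PSAD-1* and *GLK2* were also lowest in replicate 3 in every genotype, and *RBCS1A* in *quintuple* only. The summed FPKM of 7 senescence markers was 121 to 216 in *octuple*, 983 to 1078 in *quintuple*, 88.8 to 257 in *epn* and 82.7 to 237 in WT. *SAG13* was the largest part of the *quintuple* sum, at 467 to 663 FPKM, while *SAG12* was at most 1.21 FPKM there. Of 6 root markers 4 were measured, and their sum of 193 to 404 in *octuple*, 996 to 1379 in *quintuple*, 93.1 to 112 in *epn* and 73.1 to 80.9 in WT was almost all *PYK10*, a glucosidase gene, while *RHD6* and *PHT1;3* were at or near 0. The summed FPKM of 5 xylem markers was 51.7 to 61.7 in *octuple*, 16.1 to 26.7 in *quintuple*, 43.5 to 58.0 in *epn* and 48.9 to 62.3 in WT, and 2 of the 5 were called higher in *octuple* than in *quintuple*. The lower *quintuple* sum lay in *XCP1*, at 2.32 to 4.40 FPKM against 14.4 to 16.3 in *octuple*, and *XCP2*, at 3.70 to 6.45 against 27.0 to 35.0. *IRX1*, *IRX3* and *IRX5* overlapped between these genotypes and were higher in *quintuple* in replicate 3. Seed, flower and pollen lists summed to at most 6.28 FPKM in any library. The part of these shifts in the levels of the 26 genes was not tested.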

How the data were processed

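RNA-seq counts per gene and FPKM, both deposited by the authors for 12 libraries, were used. The labels name HISAT2, HTSeq and R 3.2.0. The study used R for enrichment of terms, the roles of HISAT2 and HTSeq are not given in the sources used here, and the strand setting of the counting is not given either, so that reads of overlapping genes, such as *AT3G59440* and its neighbour, may not be told apart. Gene lengths recovered from counts and FPKM equalled the RefSeq TAIR10.1 exonic lengths in all 23784 genes, so positions and promoters were taken from that build. The gene set was chosen on FPKM. Counts were tested with edgeR 4.0.16 in R 4.3.3 (TMM, filterByExpr, quasi-likelihood test), separately for each pair of genotypes, and DESeq2 1.42.0 was an alternative. The fits were also run on simulated data, with an outcome that is not given here, so nothing is read from it. Libraries with equal replicate numbers deviated together (r of 0.185 to 0.786 in 18 pairs, against -0.589 to 0.268 in 36 pairs with different numbers, over 20103 genes), so the numbers were taken as pairing the samples. The main fits between genotypes did not use this pairing. Their standard errors, intervals and p-values for single genes therefore ignore it. The fit with the block is given where it moved a count. In *octuple* against *quintuple*, 6 of 25 members took the other sign with the block. The labels call the replicates biological, with no further detail. The genes named are the 26 members, the genes nearest each limit, the adjacent related genes and the listed markers. The members and gene lists were chosen with earlier results of these data known. *AT1G53880* did not pass the filter on low counts between any pair of genotypes, and in *epn* against WT 8 members, this gene included, did not.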

Additional observations from a re-analysis of the deposited data

How the results depend on the processing

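Membership depended on the constants of the rule. It held 14 genes with 1 added to each mean, 16 with a narrower ratio window, 41 with induction of at least 3 times and 8 with at least 8 times, and 21 to 37 when single libraries or replicate numbers were left out. In *octuple* against WT, 14 members were called, against 24 with the replicate block, 24 with DESeq2 and 22 with all 12 libraries in 1 fit. Leaving out 1 library gave 2 to 10, with 5 and 3 without WT replicates 1 and 2, and 2 and 3 without *octuple* replicates 1 and 2. In *octuple* against *epn*, 19 were called, 23 with the block, and 3 to 17 without 1 library, with 5 and 3 without *epn* replicates 1 and 2, and 6 and 10 without *octuple* replicates 1 and 2. Counts were 23 to 24 in *quintuple* against WT (25 with the block), 0 to 1 in *octuple* against *quintuple* (1 without *quintuple* replicate 2) and 0 in *epn* against WT. Members called between replicate numbers were 3, against 1 without the WT, the *epn* or the *octuple* libraries and 7 without the *quintuple* libraries. The cause was not tested. Counts from fits with libraries left out, or with all 12 libraries in 1 fit, have no share over all genes beside them. They are therefore not read as results about the members. No called difference reversed under any alternative run, which the folds asked for by the rule largely fix. In *octuple* against *quintuple*, where none was called, 1 to 7 of 25 members took the other sign in each of 12 alternatives, and the median turned negative with library size alone and without *octuple* replicate 2. Depth limits the members near 1 FPKM, and 3 libraries per genotype limit all of the ratios.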
